A study of Homo sapiens with 18 samples.

Results

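The receptor tyrosine kinases ROS1, MET, MST1R, AXL, TYRO3, IGF1R, INSR, FGFR2, FGFR3 and DDR1 were followed in MCF10A cells, an immortalized and non-tumorigenic human mammary epithelial line. These 10 genes were picked by symbol, with the ERBB and Eph receptors left out, from 19401 genes listed in at least 1 of 3 deposited tables. They were chosen with the knockout-against-WT results of the same tables in view, so their presence is not a finding. All 10 were found by symbol in each table and were joined by Entrez ID.

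The 18 RNA samples formed 5 groups. CBFB KO (3 samples) was made by CRISPR-Cas9 disruption of CBFB, the partner that helps RUNX proteins bind DNA, and had its own WT (3 samples). RUNX1 KO1 (4 samples) and RUNX1 KO2 (4 samples) were separate clones with RUNX1 disrupted, and the WT of the RUNX1 experiment (4 samples) served both. The groups shared the parental line and received no drug, and each knockout was a single-cell clone, so a difference between clones and an effect of the lost gene cannot be told apart. The samples of a group are not stated to be separate cultures. MCF10A medium holds insulin, EGF, hydrocortisone, cholera toxin and horse serum, so ligands for the insulin receptor family were supplied from outside in all groups.

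Each table gives, for every gene, the authors' mean of normalized counts over the knockout and WT libraries together. That mean is the only value used here. It shows how much RNA of a receptor the libraries of a comparison held, but not how it was shared between KO and WT, and it has no replicate spread. No knockout-against-WT difference is therefore given, the disrupted genes could not be checked per sample, and no difference below has a test. Intervals are exact Poisson 95% intervals on the reads behind a mean and cover counting error only. In bulk RNA, fewer cells that express a receptor and less RNA per cell cannot be told apart.

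The tables listed 18526 genes for CBFB KO and its WT (6 libraries), 18517 for RUNX1 KO1 and WT (8 libraries) and 18117 for RUNX1 KO2 and WT (8 libraries). The means summed to 20214423, 18050386 and 16467400 normalized counts, which is the average total of a library. The library size factors, which were read from genes with 1 read in 1 library, lay between 0.562 and 1.29 over the tables. Epithelial markers were abundant: KRT5, a basal keratin, had means of 87894, 101688 and 95221. Of 8 epithelial markers 8, 8 and 7 were listed. KRT14 was not listed in the KO2 table, although its mean in the KO1 table was 9515. A missing entry is therefore not read here as a lack of RNA. Among 6 markers of other cells, the leukocyte gene PTPRC was listed only in the CBFB table, at 0.463, and the endothelial gene PECAM1 stayed at 0.870 or below. PGR was listed nowhere. The estrogen receptor ESR1 had means of 77.6, 59.9 and 53.9, and the collagen gene COL1A1 had means of 284, 305 and 236.

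Receptor tyrosine kinases are membrane proteins that bind a ligand outside the cell and phosphorylate tyrosines inside it, which recruits adaptor proteins and starts signaling through RAS and PI3K. MET and MST1R bind the related factors HGF and MST1, which are secreted as precursors and cut by proteases. AXL and TYRO3 bind GAS6 and PROS1. IGF1R and INSR bind insulin-like growth factors and insulin, FGFR2 and FGFR3 bind fibroblast growth factors, and DDR1 binds collagen. ROS1 is a long receptor, best known from gene fusions in cancer, whose ligand NELL2 acts in the epididymis.

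To compare receptors with each other, means were scaled so that those of a table sum to 1000000 (CPM) and divided by the length in kb of the longest annotated transcript (CPM per kb). DDR1, MET, MST1R and AXL formed the upper end in every table. In the KO1 table DDR1 led with 35.4, followed by MET with 19.9, MST1R with 14.8 and AXL with 9.49. In the KO2 table the same receptors stood in the same order, at 33.4, 18.8, 14.5 and 9.21.

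In the CBFB table MET led with 30.8 and DDR1 followed with 27.2. AXL stood at 18.4 and MST1R at 17.5, the one close behind the other. No replicate error is available to separate such neighbours, and the counting intervals of their means do not include differences in transcript use.

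The lower end held INSR, FGFR2 and, in the RUNX1 tables, ROS1. Per longest transcript, INSR was the lowest in all 3 tables, at 1.59, 1.45 and 1.42 CPM per kb in the CBFB, KO1 and KO2 tables. In the RUNX1 tables ROS1 was the lowest with the median coding length and FGFR2 with no length. ROS1 was ninth in both RUNX1 tables, at 1.71 and 1.76, and the sixth in the CBFB table, at 5.58. FGFR3 was eighth in the CBFB table, at 3.74, and the fifth in the RUNX1 tables, at 6.71 and 6.45. TYRO3 stayed between 4.44 and 4.79 and IGF1R between 3.62 and 5.79.

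The highest receptor exceeded the lowest 19.4-fold in the CBFB table, 24.3-fold in the KO1 table and 23.5-fold in the KO2 table. This span rests on the longest transcript: with the median length of coding transcripts it was 137-fold and 126-fold in the KO1 and KO2 tables, and in the CBFB table DDR1 had 181 CPM per kb against 3.02 for INSR. That median was only 623 bases for DDR1 and 1531 for MET, against 4148 and 6635 for their longest transcripts. Such short lengths raise the values of these receptors. With no length the span was 14.4-fold, 12.3-fold and 11.4-fold. Among all listed genes with a length, the 10 receptors ran from percentile 39.7 to 87.7 in the CBFB table, with a median of 57.4. In the KO1 table they ran from 39.9 to 89.1, and in the KO2 table from 40.1 to 88.7. As a set they were thus moderately expressed, with none near the floor. The lowest mean of any member was 201 normalized counts, for FGFR2 in the KO2 table (95% interval 191 to 211). The members were chosen with results of these data in view, so a level above the floor may follow from the choice.

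**Figure D1:**
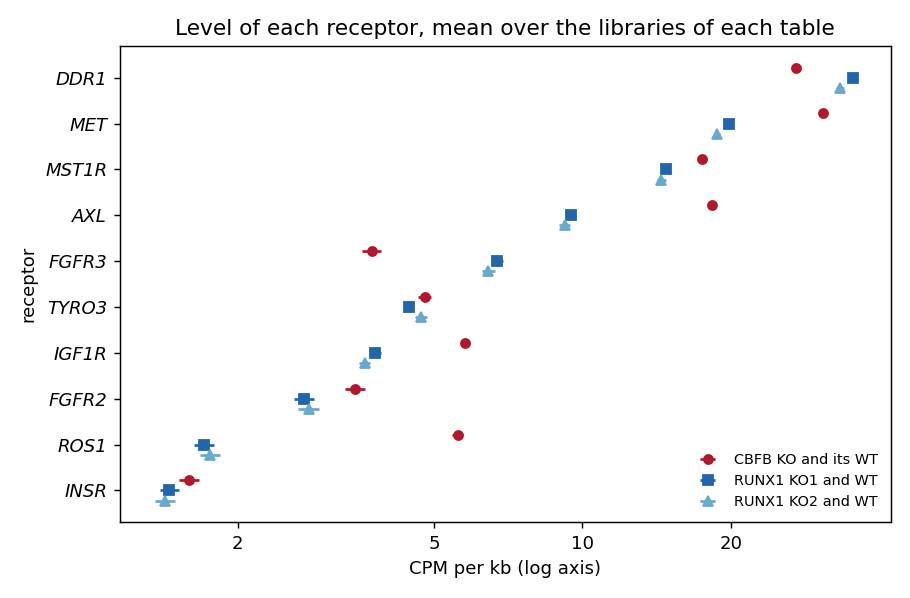
Level of each receptor in CPM per kb (log axis), averaged by the authors over the libraries of each table; bars are exact Poisson 95% intervals and mostly lie inside the symbols. ROS1 stands at 5.58 in the CBFB table and at 1.71 and 1.76 in the RUNX1 tables. For TYRO3, and likewise for INSR, the values of the tables nearly coincide.

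Of the 10 receptors, ROS1 differed most between the experiments. Its mean was 839 normalized counts in the CBFB table (95% interval 816 to 862), 229 in the KO1 table (219 to 240) and 215 in the KO2 table (205 to 226). In CPM this was 41.5, 12.7 and 13.1, so the CBFB table was 3.27-fold above the KO1 table and 3.18-fold above the KO2 table. These ratios lay at percentiles 99.5 and 99.2 of all genes compared. This comparison was added after the values were seen.

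A mean over equal groups also limits each group. At least 1 of CBFB KO and its WT averaged 41.5 CPM or more, while neither RUNX1 KO1 nor WT can have averaged more than 25.4 on the scale of the KO1 table, nor RUNX1 KO2 or WT more than 26.1 on that of the KO2 table. ROS1 RNA was therefore more abundant in at least 1 group of the CBFB experiment than in any group of the RUNX1 experiment. ROS1 was the only member for which this followed, that is, with a ratio over 2; 3.44% of all genes had such a ratio against the KO1 table and 4.45% against the KO2 table. Which of the CBFB experiment's groups carried the excess is not given by a mean. The paper names ROS1 among the genes whose RNA was lower in both the CBFB and the RUNX1 knockouts than in WT. In the means used here, experiment and genotype cannot be told apart.

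AXL, MET and IGF1R also stood higher in the CBFB table. AXL had 87.0 CPM there, against 45.0 and 43.6 in the RUNX1 tables, ratios of 1.93 and 1.99. MET had 205 CPM against 132 and 125, and IGF1R had 70.8 against 46.5 and 44.3. FGFR3 went the other way, with 16.6 CPM in the CBFB table against 29.8 and 28.6.

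The other 5 members were closer. DDR1 had 113 CPM against 147 and 139. MST1R had 82.1 against 69.1 and 67.7, and FGFR2 had 15.1 against 11.9 and 12.2. TYRO3, with 39.3 against 36.5 and 38.7, and INSR, with 14.2 against 13.0 and 12.8, were the nearest to equal.

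Counted at 1.5-fold, 4 of 10 members were higher in the CBFB table than in the KO1 table, where 12.1% of all genes were, and 1 was lower, where 6.98% were. With the median ratio of all genes set to 1, 2 were higher, as MET (ratio 1.48) and IGF1R (1.45) fell below 1.5-fold. Against the KO2 table the counts were again 4 and 1, where 15.1% and 13.1% of all genes were higher and lower. The median log2 ratio of the members was 0.29 against each RUNX1 table, and that of all genes was 0.07 against KO1 and 0.05 against KO2. The 8 epithelial markers did not move together between the experiments. Their ratios of the CBFB table over the KO1 table were 0.196 for KRT17, 0.386 for KRT14, 0.759 for CDH1, 0.772 for KRT5, 0.947 for KRT18, 0.987 for LAMB3 and 1.18 for EPCAM, and TP63 had 79.5 CPM against 52.8. The part of these markers in the differences of the receptors was not tested.

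**Figure D2:**
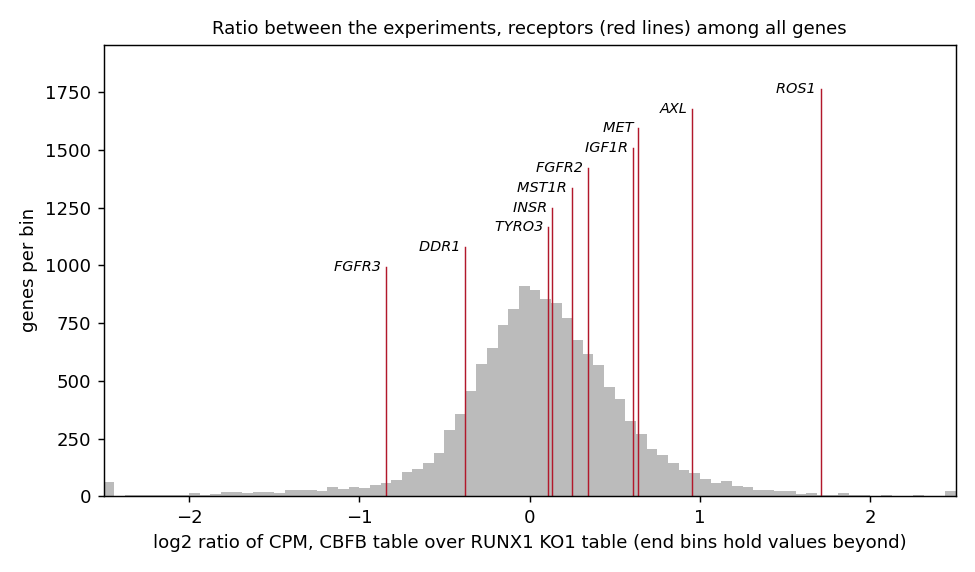
Log2 ratio of the mean CPM in the CBFB table over the RUNX1 KO1 table for all genes whose mean reached 10 in either table (grey) and for the 10 receptors (red lines, labelled; line height carries no value). ROS1 lies at 1.71, near the upper end of all genes, and FGFR3 at -0.84.

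The RUNX1 tables share their WT libraries, which allows the clones to be set against each other. Genes with 1 read in 1 library fell on 4 pairs of values, 1 for each shared library, and all 265 such genes kept their pairing. From these pairs the KO2 table was on a scale of 0.943 relative to the KO1 table (0.934 to 0.948 over the 4 libraries). After this correction WT cancels, and 2 times the difference of the table means is the difference of the clone means, KO2 minus KO1. The ratio of table means understates the ratio of clone means, since the same WT is in both.

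None of the 10 members reached a table ratio of 1.2-fold between RUNX1 KO2 and KO1, where 12.1% of 13123 genes did. Their log2 ratios ran from -0.13 to 0.04 with a median of -0.09, beside a median of -0.02 for all genes. The KO2 table was the lower in 9 of 10 members and in 7087 of the 13123 genes. Without the correction the median of all genes moved to -0.10, and all 10 members were lower. With the median ratio set to 1, 7 members were lower, as ROS1 and FGFR2 turned to log2 ratios of 0.01 and 0.003. Some markers passed 1.2-fold between the same tables: the keratins KRT17 and KRT18 had ratios of 1.51 and 1.38, the basal factor TP63 had 0.812 and COL1A1 had 0.819. Their part in the values of the receptors was not tested.

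DDR1 and MET, the members with the highest means, showed the widest gaps in normalized counts. DDR1 was lower in KO2 than in KO1 by 457 normalized counts (difference -457, from -483 to -407 over the scales of the 4 shared libraries), at a mean of 2647 in the KO1 table. MET differed by -407 (-430 to -362) at a mean of 2377. For each, the table ratio was 0.914, so on this scale the level in KO2 was at most that share of the level in KO1. The ratios of DDR1 and MET lay at percentiles 19.3 and 19.6 of all genes compared, and that of IGF1R at 21.8.

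IGF1R differed by -135 normalized counts at a mean of 840, MST1R by -133 at 1248, and AXL by -99.7 at 812. FGFR3 differed by -75.8 at 538 and INSR by -24.4 at 235, with a counting error of up to 15.1. TYRO3 was the member with more RNA in KO2, by 33.2 at a mean of 658, with a counting error of up to 25.8.

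ROS1 and FGFR2 hardly differed between the clones. ROS1 differed by -2.47 normalized counts at a mean of 229, with a counting error of up to 15.1, and its difference crossed 0 over the scales of the shared libraries (-4.89 to 2.27). FGFR2 differed by -5.00 at a mean of 215, with a counting error of up to 14.6. Differences of this size were not detectable at this depth.

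**Figure D3:**
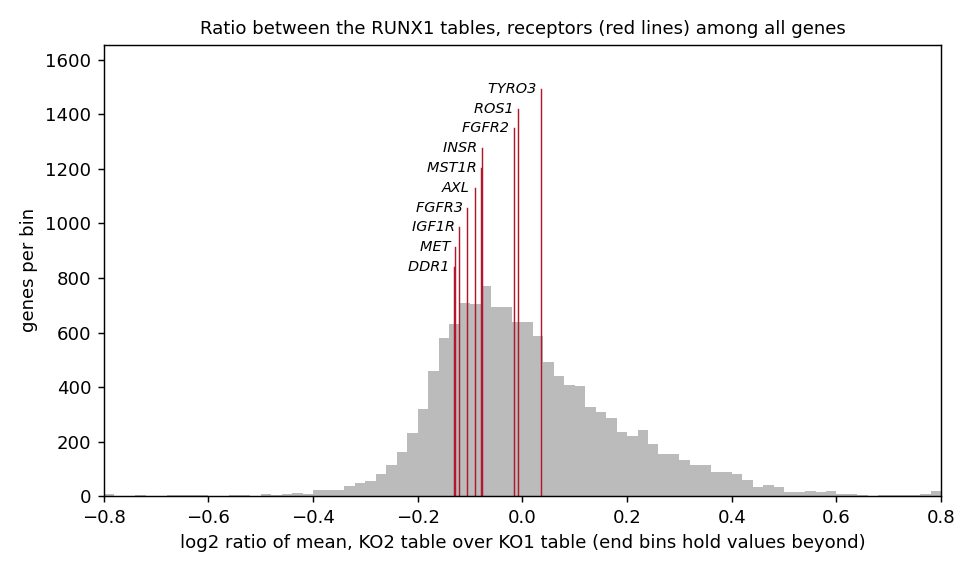
Log2 ratio of the mean in the RUNX1 KO2 table over the KO1 table, after scaling on the shared WT libraries, for 13123 genes whose means reached 10 in each (grey) and for the 10 receptors (red lines, labelled; line height carries no value). The receptors lie between -0.13 (DDR1) and 0.04 (TYRO3).

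The near relatives of these receptors were in part almost silent. ALK and LTK, the closest kin of ROS1 among those examined, had means between 0.155 and 0.782 in all tables. INSRR, the insulin receptor-related receptor, had at most 0.946, and MERTK, the third receptor for GAS6, at most 1.31. DDR2, the other collagen receptor, had 13.3 in the CBFB table and 4.34 and 4.59 in the RUNX1 tables. IGF2R was listed with them, but it clears IGF2, has no kinase and is not a near relative. By contrast it reached 13.5, 8.95 and 8.32 CPM per kb. FGFRL1, an FGF receptor without a kinase domain, had 10.5, 9.62 and 9.61, and FGFR4 had 3.23, 3.96 and 4.09. FGFR1 had means of 263, 138 and 126, and in CPM its CBFB table stood 1.69-fold and 1.70-fold above the RUNX1 tables. Of these 9 genes, FGFR1, FGFR4, FGFRL1 and IGF2R, 4 in all, had means of 10 or more in each RUNX1 table and none reached the 1.2-fold ratio between them.

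Of 16 genes in the ligand list, 13 were listed in each table, and the means of 6, 5 and 5 of them reached 10 in the CBFB, KO1 and KO2 tables. HGF, INS and FGF10 were listed in none. GAS6, the ligand of AXL and TYRO3, had 25.0, 38.3 and 43.5 CPM per kb. PROS1, the other ligand of these receptors, had 3.01, 2.79 and 3.30. FGFBP1, a carrier that frees FGFs from the matrix, was the highest of the list, at 85.2, 119 and 152, and its KO2 table stood 1.24-fold above KO1. FGF2, a ligand of FGF receptors, had means of 149, 109 and 109. MST1, the ligand of MST1R, had means of only 17.3, 21.2 and 21.1, and IGF1 and IGF2 did not exceed 1.84.

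NELL2, the ROS1 ligand, differed between the experiments in the same direction as its receptor. Not every pair did so. GAS6 had ratios of 0.653 and 0.576 for the CBFB table over the KO1 and KO2 tables, while its receptor AXL had 1.93 and 1.99. The mean of NELL2 was 20.2 normalized counts in the CBFB table and 0.740 and 0.796 in the RUNX1 tables. In CPM, NELL2 in the CBFB table was 24.4-fold above the KO1 table and 20.7-fold above the KO2 table. The NELL2 values in the RUNX1 tables rest on only a few reads over 8 libraries, so the size of the ratio is imprecise.

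Of 7 genes for proteases that act on the ligands of MET and MST1R, or for their inhibitors, 5 were abundant. The other genes were HGFAC and HPN. HGFAC had means of 0.241 and 0.113 in the KO1 and KO2 tables and was not listed in the CBFB table. HPN was listed in none. ST14 (matriptase), a membrane protease that activates HGF, had 74.5, 92.8 and 104 CPM per kb. The protease inhibitor SPINT2 was close to it, with 74.6, 87.2 and 102, and SPINT1 was lower, with 48.8, 50.7 and 58.1. PRSS8 (prostasin), which works with matriptase, had means of 534, 920 and 1286, and its KO2 table was 1.48-fold above KO1 after scaling. It was the one gene of the 5 compared in this list that passed 1.2-fold.

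Among the insulin-like growth factor binding proteins, IGFBP7 had 45.5, 37.9 and 44.3 CPM per kb. IGFBP6, with 29.2 and 36.9, and IGFBP2, with 1.64 and 2.48, were not listed in the KO2 table. As for KRT14, this is not read as a lack of RNA. IGFBP3 and IGFBP4 had low means, up to 38.5 and 14.2, and stood 1.42-fold and 1.37-fold higher in the KO2 table than in the KO1 table.

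All 17 adaptors and docking proteins had a mean of at least 10 in every table. SHC1 led with 186, 155 and 162 CPM per kb, followed by the phosphatase PTPN11 and the adaptor GRB2. PTPN11 had 51.1, 36.5 and 33.1, and GRB2 had 34.4, 34.0 and 35.2. IRS1, the docking protein of INSR and IGF1R, was the only one past 1.2-fold between the RUNX1 tables, with a ratio of 0.776: its mean was 186 in the KO1 table and 144 on the same scale in the KO2 table. IRS2, its relative, had a ratio of 1.03. CBL, a ubiquitin ligase that removes activated receptors, was, with 86.9 CPM against 34.3 and 31.5, the only adaptor whose CBFB table mean exceeded both RUNX1 means over 2-fold.

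RUNX proteins bind DNA at TGTGGT or TGCGGT, so these letters were sought on both strands of the RefSeq (GRCh38.p14) promoter windows, 250 bases before to 50 after each annotated start. The 10 members had 23 windows, of which 3 held a match, from FGFR2 and TYRO3, while 19.6% of all 35116 windows did. No window of ROS1 or MET held these letters. The matches are shown in capitals with their flanks because they are the only ones among the receptors, each on the strand of its gene, and they are a description of sequence, not evidence of binding.
FGFR2, chr10:121596664-121596693, minus strand: ccgggagggcttTGTGGTcctgggtcagtg
FGFR2, chr10:121593918-121593939, minus strand: gttcctgagcccACCGCAggct
TYRO3, chr15:41559748-41559777, plus strand: tccgcctcggaaACCACAcgggccggggct
ACCGCA and ACCACA are the same motifs read on the opposite strand.

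Reads of TYRO3 and FGFR3 could have been divided with near copies, since RefSeq annotates 1 pseudogene named after TYRO3 and 6 named after FGFR3. Their levels are uncertain to that extent.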

How the data were processed

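RNA-seq of 18 MCF10A samples was grouped by the labels. The submitters' processing notes name Trimmomatic, STAR, DESeq2 and hg19, without versions. The labels name a TruSeq mRNA kit and the study's methods name ribosomal RNA removal, so which applies is not known. The deposited tables hold the authors' mean of normalized counts over all libraries of a comparison, a signal and not a count, and 0 columns of per-sample values. They also hold the authors' fold changes, standard errors, test scores and p-values, which were not used. No test between groups was run.

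Size factors were taken from the most frequent means, which are those of 1 read in 1 library. The scale between the RUNX1 tables was the geometric mean over 4 shared libraries, each matched by at least 20 genes. This step was checked on simulated tables. Lengths came from GENCODE release 29 by Entrez ID and covered at least 97.2% of genes. A table ratio of at least 1.2 at a mean of at least 10 in both RUNX1 tables was counted. The comparison between experiments, at 1.5-fold and at a mean of at least 10 in either table, was added after the values were seen. The text names all members and, from each other receptor-related list, the 3 highest per length and every gene past 1.2-fold; further genes were named after their values were seen. Members and lists were chosen with earlier results of these data known. Python 3.11.15, numpy 2.4.6, pandas 2.3.3, scipy 1.17.1 and matplotlib 3.10.9 were used. Alternatives were other lengths, scales, minima and folds.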

Additional observations from a re-analysis of the deposited data

How the results depend on the processing

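No paired analysis was possible because the tables hold no value per library, and for the same reason no replicate could be left out. With the median length of coding transcripts in place of the longest, 1, 4 and 4 of 10 receptors kept their place in the CBFB, KO1 and KO2 tables, and with no length 10, 5 and 4 did, so the order between receptors depends on the length used. ROS1 then stood at place 7, 10 and 10 with the median length. The count of members past the fold between the RUNX1 tables was 0 under every scale, minimum and fold tried (1.1 and 1.5 included), each changed alone. Scale and fold were not changed together. Without rescaling, DDR1 and MET had log2 ratios of -0.214 and -0.213, past 1.1-fold. IGF1R, FGFR3, AXL, MST1R and INSR also lay past 1.1-fold there. The share of all genes past the fold was 38.8% at 1.1-fold and 0.838% at 1.5-fold, and between 12.1% and 17.8% otherwise. The number of members lower in KO2 was 7 with the median ratio set to 1, where ROS1 and FGFR2 moved to log2 ratios of 0.01 and 0.003, and 10 with no rescaling, where TYRO3 moved to -0.05. Between experiments, alternatives chosen after seeing the data gave 3 members apart by 1.5-fold against the KO1 table with the median ratio set to 1 (5 otherwise) and 1 member at 2-fold against either table. ROS1 kept log2 ratios of 1.64 and 1.62. Depth limits the differences of ROS1, FGFR2, INSR and TYRO3 between the clones, which lie within 2 counting errors, and all values of genes with a mean of a few counts.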
